A study of Drosophila melanogaster with 3 samples.

Results

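CHES-1-like and tara were the shortest of the 6 protein-coding genes of Drosophila melanogaster that held 10 or more optimal peaks of tagged Broad in larvae at the wandering stage of the last (the third) instar. They were chosen by their number of peaks in the deposited peak lists, so that number is a description and carries no test. A region belonged to a gene when its summit, the base where the authors' peak was highest, lay in the annotated gene body or within 5 kb of it. By this rule 20 of 2533 optimal peaks belonged to 2 of 13968 protein-coding genes, 10 to each.

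The study was chromatin immunoprecipitation with sequencing (ChIP-seq) of whole animals of a stable transgenic line, strain br-re-GFP, in which the C terminus of Broad, named br-RE in the labels, carries GFP. Chromatin was sheared by sonication to a labelled size range of 200 to 800, with no unit given, and precipitated with an antibody against GFP. All 3 libraries, biological replicates 2, 3 and 4, form 1 group of pooled males and females of unknown age. No other genotype or stage is compared here, the control library is not analysed here, and whole larvae mix all tissues, so a peak at a locus does not say in which cells the protein was bound. The labels do not state which of the alternative zinc finger ends of Broad the tagged protein has.

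Broad is a family of zinc finger transcription factors made from the gene br by alternative splicing, and it is among the early genes that the steroid hormone ecdysone switches on at the end of larval life. CHES-1-like encodes a forkhead transcription factor related to human FOXN3, and in the fly embryo it acts with the forkhead gene jumu in the divisions of heart progenitors. The gene tara (taranis) encodes a protein of the TRIP-Br or SERTAD family that was found through its genetic interactions with trithorax group genes. It acts with Cyclin A in the control of sleep and protects posterior identity in the regenerating wing disc.

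The optimal list holds the 2533 peaks that the authors kept after a test of reproducibility. It is identical to the strongest 2533 of 27389 regions in the pooled list. Each replicate list holds 30000 regions, background included, so being listed there is a weak statement. For each replicate, the strongest 2533 regions are called its top regions. The signal, the authors' value for each region, was 44.2 at rank 2533 in replicate 2, 32.4 in replicate 3 and 23.0 in replicate 4, so signals were compared within a list only, as ranks in which 1 is the strongest. A peak was called supported in a replicate when a top region there had its summit within 200 bp. Its rank in a replicate is that of the strongest region with a summit within 200 bp, which was not always the nearest. Over the optimal list, 672 peaks were supported in 1 replicate only and 73 in none. A place in that list thus does not show that a peak recurred among the top regions of the replicates. Read depth is unknown.

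The sequences at the peaks show what the summits of both genes have in common and where they differ. Peaks are numbered in the direction of transcription, and each sequence runs 5′ to 3′ on the strand of its gene, from the Release 6 genome (dm6). In the first set, capitals mark CACTGT or its reverse complement ACAGTG. This word was noticed while the 20 member sequences were read, so its count in them is a description. CHES-1-like peaks 3 and 9 and tara peaks 1 and 6 are shown because they hold it, and CHES-1-like peak 7 because it was the gene's strongest peak and did not.
CHES-1-like peak 3 (whole region, peak in the intron; chrX:7706881-7707090, minus strand): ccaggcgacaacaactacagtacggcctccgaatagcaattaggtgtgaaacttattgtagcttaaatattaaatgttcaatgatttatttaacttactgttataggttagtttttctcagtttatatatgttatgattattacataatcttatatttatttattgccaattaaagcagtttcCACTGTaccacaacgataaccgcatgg
CHES-1-like peak 9 (summit window, intron; chrX:7692810-7693010, minus strand): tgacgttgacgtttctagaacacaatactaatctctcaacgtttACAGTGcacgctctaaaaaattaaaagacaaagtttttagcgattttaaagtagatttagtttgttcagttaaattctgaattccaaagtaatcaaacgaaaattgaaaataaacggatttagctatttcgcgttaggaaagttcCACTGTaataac
tara peak 1 (whole region, upstream flank, strongest peak; chr3R:16222376-16222612, plus strand): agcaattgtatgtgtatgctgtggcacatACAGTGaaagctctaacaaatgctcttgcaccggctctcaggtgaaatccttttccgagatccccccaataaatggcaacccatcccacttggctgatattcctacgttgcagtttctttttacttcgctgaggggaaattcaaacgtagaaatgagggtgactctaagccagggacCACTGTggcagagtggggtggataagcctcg
tara peak 6 (whole region, intron; chr3R:16236941-16237073, plus strand): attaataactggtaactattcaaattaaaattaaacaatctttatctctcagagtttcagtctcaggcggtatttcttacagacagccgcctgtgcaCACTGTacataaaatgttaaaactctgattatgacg
CHES-1-like peak 7 (whole region, intron, strongest CHES-1-like peak; chrX:7698338-7698524, minus strand): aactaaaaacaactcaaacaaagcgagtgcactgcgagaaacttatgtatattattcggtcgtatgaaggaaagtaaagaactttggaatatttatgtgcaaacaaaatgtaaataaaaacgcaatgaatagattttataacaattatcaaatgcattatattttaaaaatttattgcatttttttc

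CACTGT, on either strand, lay within 100 bp of 10 of the 20 member summits. It was at 7 of 10 CHES-1-like summits, peaks 1 to 6 and 9, and at 3 of 10 tara summits, peaks 1, 6 and 9. The 10 windows held 15 matches, and the match nearest to the summit lay 9 to 88 bp from it, with a median of 46.5 bp. At CHES-1-like peak 6 there were 3 matches. In windows of the same length centred 1000 bp to either side of the member summits, 4 of 40 held the word.

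The other 2490 nuclear optimal peaks had no part in the choice of the word. Among them 19.6% of summit windows held it, against 8.69% of 4980 flanking windows. In the top regions outside both genes, the word was in 18.0% of summit windows in replicate 2, 16.2% in replicate 3 and 22.0% in replicate 4, against 8.38%, 8.66% and 8.06% of flanking windows. The mean was 18.7% ± 2.99 at summits and 8.37% ± 0.304 in flanks (SD, n = 3), and the groups of values did not overlap. The replicates also entered the pooled list, and 966 of 2533 optimal peaks were supported in all 3. These values are therefore not independent of each other or of the share at optimal peaks. Among the other optimal peaks, the share was 21.5% beyond 1000 bp of a transcription start site (TSS) and 18.4% within that distance. At 3 other genes with many peaks, the word was at 1 of 13 summits of Tlk, 1 of 11 of sbb and 1 of 9 of ush. Their flanking windows held it in 5 of 26, 1 of 22 and 4 of 18, so at Tlk and ush the share was lower at summits than in flanks.

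The other peaks also showed a pattern of distance. CACTGT had 4.10 matches per 100 peaks in the 50 bp before the summit, towards lower coordinates, and 4.98 in the 50 bp after it. It had 6.59 and 7.19 in the next 50 bp on either side. The word of the Broad Z2 fingers, CTATTT, was instead highest in the bin that ends at the summit, with 6.43 matches per 100 peaks.

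**Figure D1:**
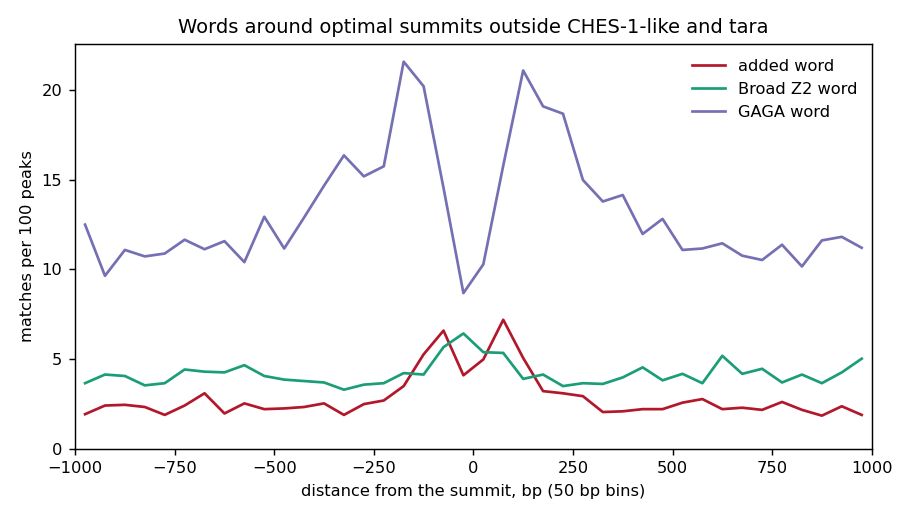
Matches per 100 peaks in 50 bp bins, on either strand, against the distance from the summit in bp, for the 2490 nuclear optimal peaks outside CHES-1-like and tara. Lines are the added word (CACTGT), the Broad Z2 word (CTATTT) and the GAGA word (GAGAG). The added word is most frequent 50 to 100 bp from the summit on both sides, and the GAGA word dips at the summit.

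The second set shows the peaks with the most GAGAG, the word of the GAGA factor, a protein known at promoters. Capitals mark GAGAG or its reverse complement CTCTC. The tara peaks 2 and 7, upstream of the first promoter and at the second, held 7 and 6 matches.
tara peak 2 (summit window, upstream flank; chr3R:16224504-16224704, plus strand): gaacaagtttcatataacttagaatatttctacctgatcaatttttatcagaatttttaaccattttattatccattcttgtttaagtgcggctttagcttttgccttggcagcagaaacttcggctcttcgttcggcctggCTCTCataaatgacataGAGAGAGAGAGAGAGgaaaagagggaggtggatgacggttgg
tara peak 7 (summit window, promoter of tara-RB; chr3R:16242508-16242708, plus strand): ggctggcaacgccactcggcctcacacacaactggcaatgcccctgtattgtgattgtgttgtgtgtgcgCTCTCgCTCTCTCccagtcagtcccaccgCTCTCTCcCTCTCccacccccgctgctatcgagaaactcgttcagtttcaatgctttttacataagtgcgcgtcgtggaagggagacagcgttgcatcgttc

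GAGAG was within 100 bp of 4 CHES-1-like and 5 tara summits, 45.0% of the 20, against 26.5% of all nuclear optimal windows. The member flanks held it in 32.5% of windows, and the flanks of all nuclear peaks in 24.2%. CTATTT was at 6 CHES-1-like summits and at 1 tara summit, 35.0% in all, against 20.4% of all nuclear windows. AAACTA, the Broad Z3 word, was at 4 CHES-1-like summits and at none of tara, and its 20.0% was near the 20.8% of all nuclear windows. GTAAACA, known for Broad Z4 and as the forkhead core, was at 1 summit, tara peak 3, against 6.37% of all nuclear windows. TGANTCA, known for AP-1, was at 1 summit, tara peak 9, against 4.62%. TATCGATA, the DRE core, and GGTCACAC, known for M1BP, were at none of the 20, and at 3.31% and 1.51% of all nuclear summits. Both genes had GAGAG, while the Z2 and Z3 words and CACTGT were counted more often at CHES-1-like. A match is no evidence that a protein binds there.

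The windows at CHES-1-like were richer in A and T. Their median GC content was 32.8%, against 39.3% at tara and 35.8% over all nuclear peaks. At both genes the summit windows had less GC than their flanks, whose medians were 37.3% at CHES-1-like and 46.3% at tara. The same order held over all nuclear peaks, with 35.8% at summits and 43.3% in flanks. The part of base composition in the word counts was not tested.

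CHES-1-like (FBgn0029504) lies on chrX:7682338-7709385, on the minus strand, and is 27048 bp long. It has 4 transcripts, each with 6 exons and its own promoter. Downstream of the first TSS, at base 7709385 (CHES-1-like-RC), those of RB, RA and RD follow at 4422, 12681 and 14467 bp. All share 1 start codon 19390 bp from the first TSS, so the promoters differ in their untranslated first exons, and their first introns are 18998, 14781, 6480 and 4789 bp long. All 10 optimal summits lay in the 19390 bp before that start codon. None lay in the remaining 7658 bp, which hold the coding exons and the 3′ end, nor in either 5 kb flank. In none of the 3 replicates did a top region lie in those 7658 bp, and the stronger of the 2 pooled regions there had rank 16853.

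**Figure D2:**
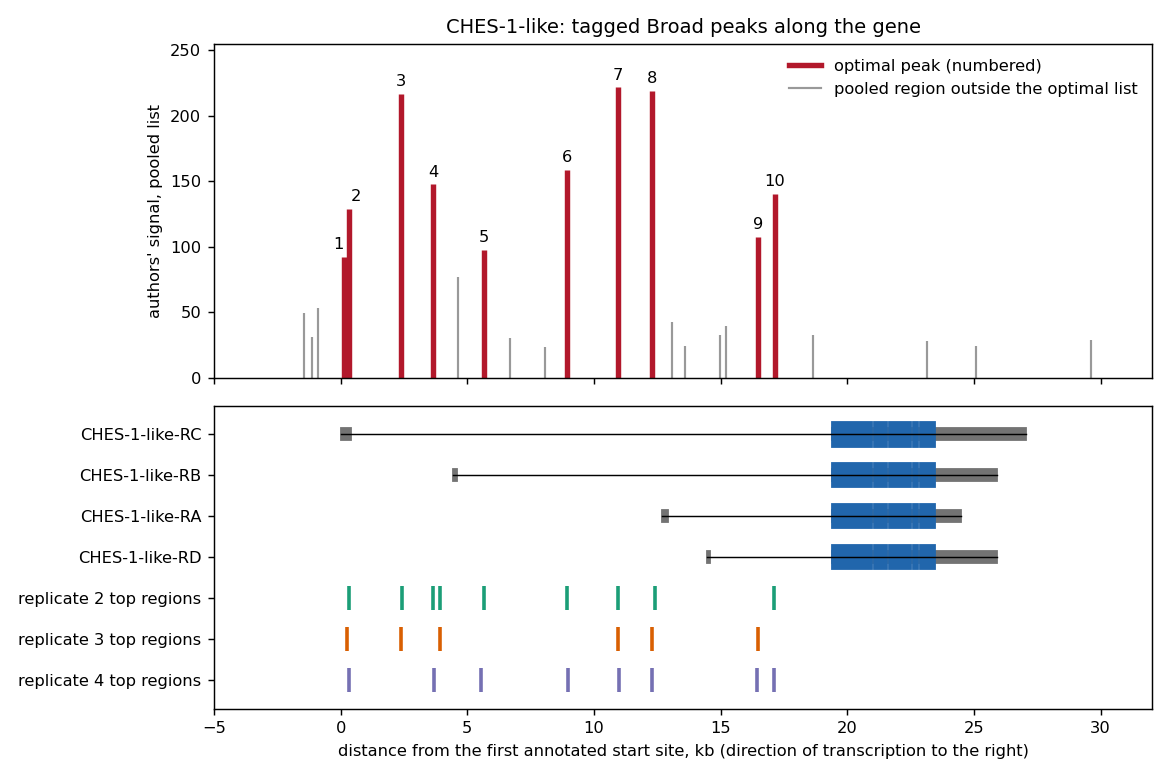
CHES-1-like, with distance from the first annotated TSS in kb. The upper panel gives the authors' signal in the pooled list, with the 10 optimal peaks in red and the 14 other pooled regions in grey. The lower panel gives the 4 transcripts (grey boxes untranslated, blue boxes coding) and the summits of the top regions of each replicate. All optimal peaks lie left of the coding exons.

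At the first promoter, RC, 2 overlapping regions had their summits 147 and 347 bp downstream of the TSS. Peak 1 (summit 7709238) had signal 92.3 and optimal rank 2340, and peak 2 (7709038) had signal 129 and rank 1237. Both met the same region in each replicate, at rank 1708 in replicate 2, 1803 in replicate 3 and 947 in replicate 4. They are therefore not separate evidence, and the nearest weaker regions to peak 1 lay 49 bp away at rank 4757 in replicate 2 and 11 bp away at rank 4333 in replicate 4. Both are in the untranslated first exon.

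Peak 3 (7706988), 2397 bp from the first TSS and in the RC intron, had signal 217 and rank 442. It lay 787 bp from the TSS of the noncoding gene lncRNA:CR43287, which sits in that intron on the other strand. In replicates 2 and 3 it ranked 318 and 155, the gene's strongest region in both, but in replicate 4 it ranked 7906. Its standing thus differed most between replicates among the CHES-1-like peaks.

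The second promoter, RB, had peak 4 (7705726), 763 bp upstream of its TSS, with signal 148 and rank 955. It ranked 1820 in replicate 2, 4377 in replicate 3 and 643 in replicate 4. Replicates 2 and 3 each had another top region 267 and 252 bp further on, at ranks 1599 and 1209. Those were within 1000 bp of the RB TSS too, so all 3 replicates had a top region at this promoter, though not at a common summit. The strongest pooled region of the gene outside the optimal list, at rank 3263 with signal 77.0, lay 210 bp downstream of the same TSS.

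Peak 5 (7703735), 1228 bp downstream of RB, had signal 97.5 and rank 2106, and lay 395 bp from an annotated jockey element, a transposon present in many copies. It ranked 1884, 4557 and 1577 in replicates 2, 3 and 4. Peak 6 (7700430), in the intron 3726 bp upstream of RA, had signal 159 and rank 827. It ranked 2204 in replicate 2, 6045 in replicate 3 and 224 in replicate 4, where it was the gene's strongest region. Replicate 3 was the low library at peaks 4, 5 and 6 alike.

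Peaks 7 and 8 were high in every replicate. Peak 7 (7698433), 1729 bp upstream of RA, had the gene's highest signal, 222, at rank 419, and ranked 701 in replicate 2, 278 in replicate 3 and 429 in replicate 4. Peak 8 (7697097), 393 bp upstream of RA, had signal 219 at rank 434, and ranked 449, 675 and 249. Its rank in replicate 2 was that of a region 116 bp away, and the nearest region there, 85 bp away, ranked 4799. With peaks 1 and 2 these were the 4 CHES-1-like peaks supported in all 3 replicates.

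The 2 peaks downstream of RD were in the intron that all transcripts share. Peak 9 (7692910), 2008 bp from the RD TSS, had signal 107 and rank 1746, with ranks of 7379, 801 and 793 in replicates 2, 3 and 4. Peak 10 (7692242), 2676 bp from it, had signal 140 and rank 1055, with ranks of 1151, 2566 and 679. The fourth promoter, RD, was the only one of the 4 with no optimal summit within 1000 bp.

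The other gene, tara (FBgn0040071), lies on chr3R:16225651-16260329, on the plus strand, and is 34679 bp long. It has 2 transcripts of 2 exons, RA from the first TSS and RB from a TSS 17165 bp downstream. They share the last exon, which holds most of the coding sequence, and their introns are 30338 and 13448 bp long. Of the 10 optimal summits, 7 lay between the first TSS and the last exon. The other 3 were in the flanks, 2 upstream and 1 downstream. The last exon, 3552 bp, held no optimal summit and no top region of any replicate, and the stronger of its 2 pooled regions had rank 17701.

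**Figure D3:**
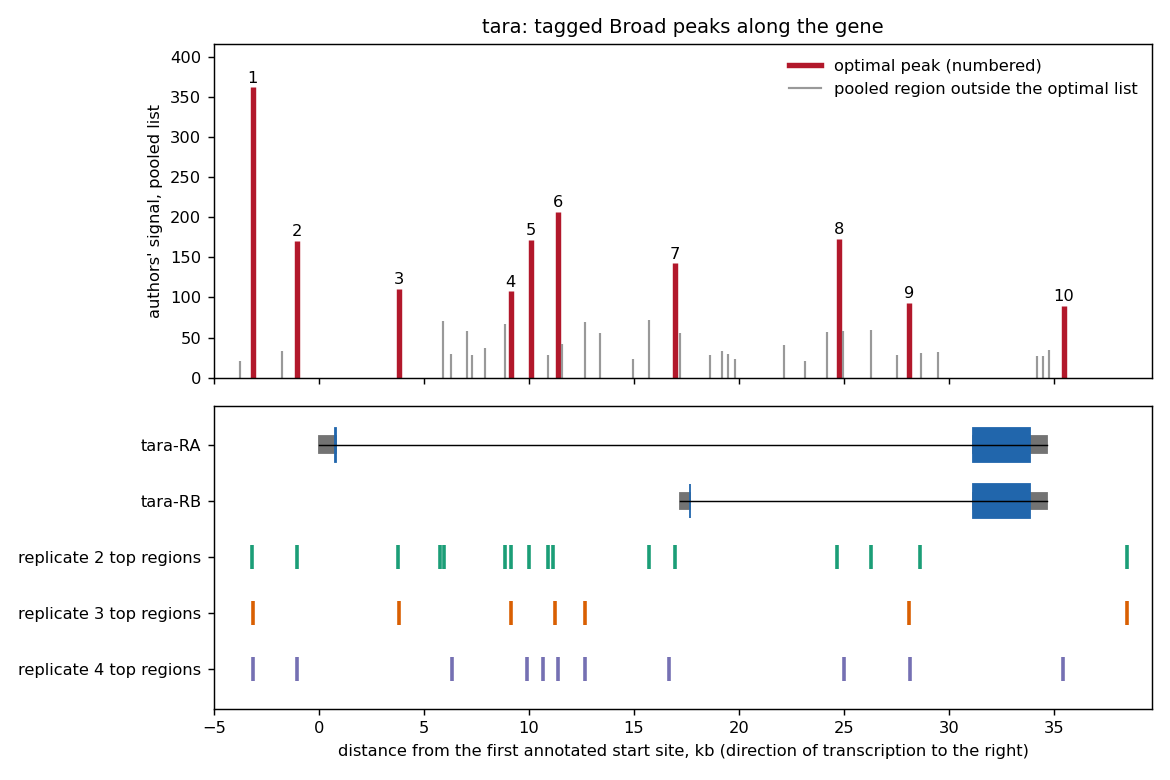
The tara locus, with distance from the first annotated TSS in kb. The upper panel gives the authors' signal in the pooled list, with the 10 optimal peaks in red and the 30 other pooled regions in grey. The lower panel gives both transcripts (grey boxes untranslated, blue boxes coding) and the summits of the top regions of each replicate. Peak 1, upstream of the gene, is the highest.

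The upstream flank held the gene's strongest peak. Peak 1 (16222496), 3155 bp upstream of RA and 899 bp from the TSS of lncRNA:CR45643, had signal 362 at rank 133. It ranked 154 in replicate 2, 462 in replicate 3 and 81 in replicate 4. This was the only tara peak supported in all 3 replicates. Peak 2 (16224604), 1047 bp upstream of RA, had signal 171 at rank 720, and ranked 671, 4059 and 538. It was thus high in replicates 2 and 4 and outside the top regions of replicate 3, and it lay just beyond the promoter distance of 1000 bp.

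The long first intron of RA held peaks 3 to 9, of which peaks 3 to 6 lay before the RB promoter. Peak 3 (16229473) had signal 110 and rank 1653, with ranks of 2142 and 886 in replicates 2 and 3 and no region within 200 bp in replicate 4. Peak 4 (16234787) had signal 107 and rank 1735, with ranks of 1411, 1569 and 3942 in replicates 2, 3 and 4. Replicate 4 was the low library at both.

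Peak 5 (16235720) had signal 172 and rank 711, and ranked 268 in replicate 2, 4623 in replicate 3 and 1424 in replicate 4. Peak 6 (16237027), 1307 bp on, had signal 207 and rank 476, and ranked 5931, 362 and 320. Replicate 2 ranked highest of the 3 at peak 5 and lowest at peak 6. It had 2 other top regions before the summit of peak 6, 251 bp away at rank 2191 and 451 bp away at rank 615. The nearer of them lay 116 bp from the region of replicate 3 that matched peak 6, so the low rank of replicate 2 there rests on the match distance of 200 bp. So does the rank of 362 in replicate 3, from a summit 135 bp away. The nearest region of replicate 3, 68 bp away, ranked 5833. At peak 5, the rank of 1424 in replicate 4 came from a summit 147 bp away, and the nearest region, 80 bp away, ranked 3134.

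The promoter of RB held peak 7 (16242608), 208 bp upstream of its TSS, with signal 142 and rank 1014. It ranked 214 in replicate 2 and had no region within 200 bp in the others. The nearest summits there were 201 bp away at rank 13740 in replicate 3 and 225 bp away at rank 11026 in replicate 4. Replicate 4 had a top region 296 bp away, at rank 1083, which was also within 1000 bp of the RB TSS. Peak 8 (16250388), in the intron that RA and RB share, had signal 173 and rank 696. It ranked 163 in replicate 2 and 3183 in replicate 3, with none in replicate 4, whose nearest top region was 239 bp away at rank 1940. The optimal ranks of peaks 7 and 8 therefore stood beside a high rank in replicate 2 only.

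Peak 9 (16253736) had signal 93.2 and rank 2294, with no region within 200 bp in replicate 2 and ranks of 1158 and 1834 in replicates 3 and 4. Peak 10 (16261111), downstream of the gene, had signal 89.3 and rank 2478, and ranked 11125, 3343 and 2270. It lay 244 bp from the body of the neighbour bor, which encodes an ATPase, so its assignment to tara rests on the 5 kb rule.

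**Figure D4:**
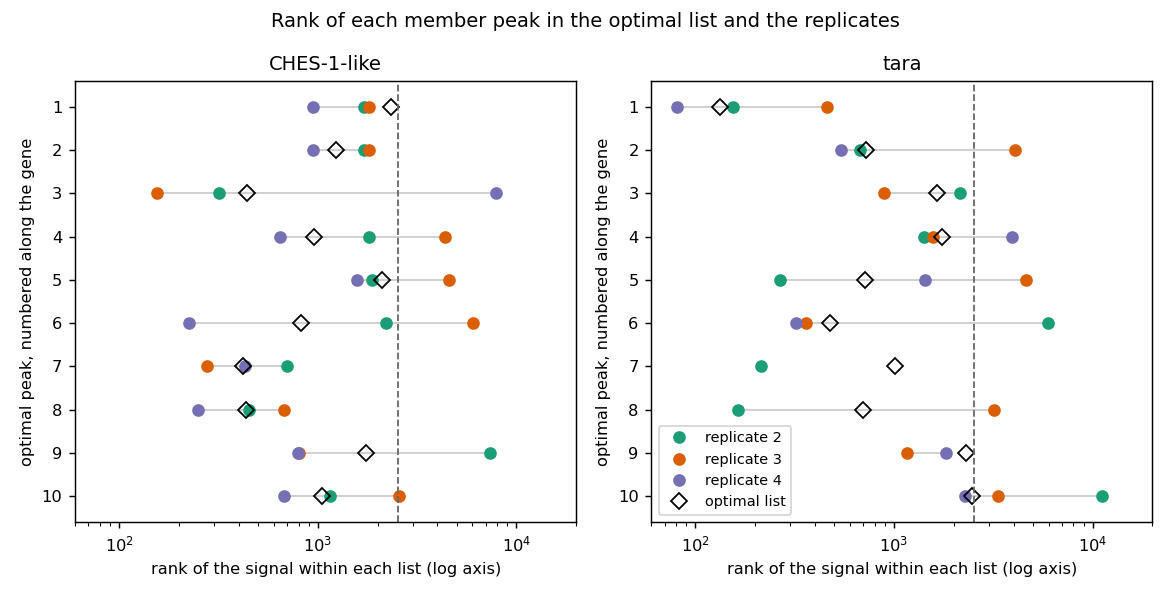
Rank of the signal (log axis, 1 is the strongest) of each optimal peak of CHES-1-like and tara, in the optimal list (diamonds) and in replicates 2, 3 and 4 (circles). The dashed line marks rank 2533, and a missing circle means no region within 200 bp. The circles of CHES-1-like peaks 1, 2, 7 and 8 and of tara peak 1 all lie left of the line.

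Support by replicates differed between the genes at the match distance of 200 bp. Of the 10 optimal peaks, 4 at CHES-1-like and 1 at tara were supported in all 3 replicates, against 966 of all 2533 optimal peaks, or 38.1%. A further 6 at each gene were supported in 2 replicates, and 3 at tara in 1. Of the 4 at CHES-1-like, peaks 1 and 2 met the same region in each replicate and are not separate evidence. With both counted, CHES-1-like was near the share over all peaks. With replicate 3 left out, 8 CHES-1-like and 3 tara peaks were supported in both remaining replicates, and with replicate 2 or replicate 4 left out 5 and 3 were. The match distance mattered at CHES-1-like, where 1 peak was supported in all 3 replicates within 100 bp. At tara it was also 1, so the genes did not differ in this count at that distance. A count that needs fewer replicates cannot be lower. The shares over all optimal peaks with a replicate left out or within 100 bp are not given here, so these counts are a description. Counting any listed region, 10 and 6 were found in all 3 replicates, against 82.1% of all optimal peaks. The replicates also entered the pooled list, so support is not independent of it.

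The number of top regions at each gene gives the spread between replicates. CHES-1-like had 9, 6 and 8 in replicates 2, 3 and 4, with a mean of 7.67 ± 1.53 (SD, n = 3). The tara window had 16, 7 and 11, with a mean of 11.3 ± 4.51 (SD, n = 3). The ranges overlap, and replicate 3 had the fewest at both genes. At CHES-1-like all but 2 of these 23 top regions matched an optimal summit, while at tara 9 of 16, 2 of 7 and 5 of 11 did not.

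The optimal peaks of CHES-1-like were the more closely spaced. The median distance between neighbouring summits was 1991 bp at CHES-1-like, with a range of 200 to 4187 bp. At tara it was 4869 bp, with a range of 933 to 7780 bp, and over all nuclear optimal peaks it was 17541.5 bp. The 10 summits spanned 16996 bp at CHES-1-like and 38615 bp at tara. Members were chosen for many peaks in a gene, so short spacing follows in part from the choice. The top regions of replicates 2, 3 and 4 had median spacings of 1872, 2156 and 2013 bp at CHES-1-like and of 2004, 6150.5 and 3359.5 bp at tara. CHES-1-like was the closer in each, by little in replicate 2, and its range overlaps that of tara.

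The optimal ranks of both genes were spread over the list. They ran from 419 to 2340 at CHES-1-like, with a median of 1005, and from 133 to 2478 at tara, with a median of 867. The last ranks lie just inside the end of the list. The first pooled regions outside it had rank 3263 at CHES-1-like and 3636 at tara. In all, the windows held 24 pooled regions at CHES-1-like and 40 at tara.

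Promoters took 4 of the 10 optimal summits at CHES-1-like, peaks 1, 2, 4 and 8, and 1 of 10 at tara, peak 7, counting TSSs of the gene itself within 1000 bp. Introns outside that distance took 6 at each gene. Counting the TSSs of any gene, the numbers were 5 and 2 of 10, against 1573 of 2510 nuclear optimal peaks, or 62.7%. The median distance to the gene's own nearest TSS was 1478.5 bp at CHES-1-like and 6442.5 bp at tara. Over all peaks the median was 436 bp, but to the nearest TSS of any gene. For a given peak that distance can only be equal or shorter, so the medians are not alike in measure. Counted by promoter, 3 of 4 at CHES-1-like and 1 of 2 at tara had an optimal summit. Of all protein-coding genes, 13.5% had an optimal summit within 1000 bp of a TSS. That share counts genes and not promoters, and a share over all promoters is not given here.

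Many peaks in 1 gene were rare. An optimal summit in the gene body or within 5 kb was found for 4444 genes, or 31.8%, and 10 or more for 6 genes, or 0.043%. The 6 were CHES-1-like and tara with 10, Tlk with 13, sbb and kirre with 11, and Eip75B with 10. CHES-1-like and tara were the shortest of them. Of 751 genes at least as long as CHES-1-like, 6 had 10 or more, itself included, and of 557 at least as long as tara, 5 did.

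**Figure D5:**
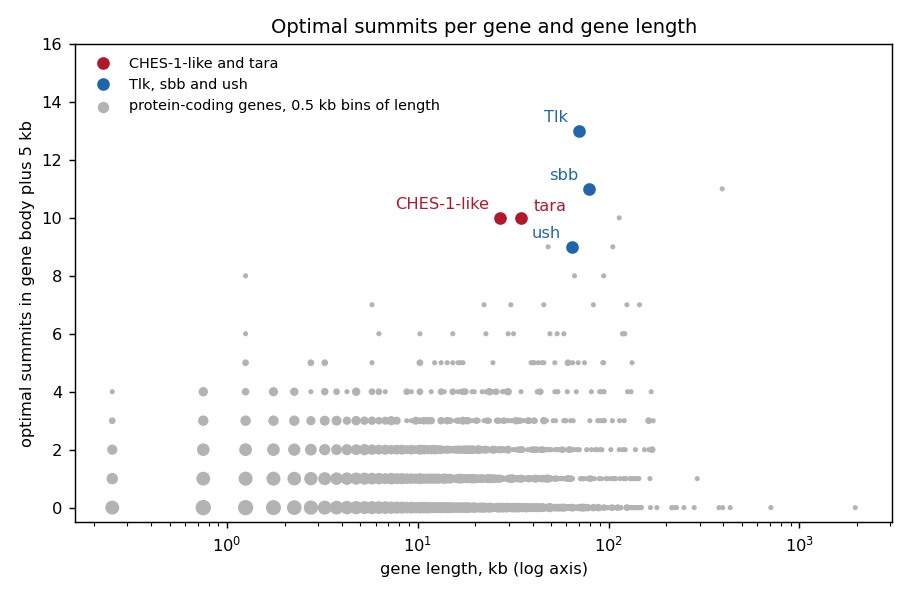
Optimal summits in the gene body plus 5 kb against gene length in kb (log axis). CHES-1-like and tara are in red, Tlk, sbb and ush in blue, and grey points are bins of 0.5 kb of length over all protein-coding genes, larger where they hold more genes. CHES-1-like and tara, with 10 summits each, lie left of the other genes with 10 or more.

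Per 10 kb of window, CHES-1-like had 2.70 optimal summits and tara 2.24, against 1.63 at Tlk, 1.24 at sbb and 1.21 at ush. Tlk, sbb and ush are longer genes, and the members were chosen by count, so this order follows in part from the choice. Density was not ranked over all genes. The gene CG12078, 1021 bp long, held 8 optimal summits in a much shorter window. Tlk encodes a Tousled-like kinase, sbb a transcriptional corepressor and ush a zinc finger cofactor of GATA factors. Their 13, 11 and 9 summits were supported in all 3 replicates at 3, 10 and 4 peaks, so sbb stood above both members in this count. The most alike genes over 4 values, the optimal count and the top regions of each replicate, were Raf and CG43658 for CHES-1-like, both at a Euclidean distance of 2.45, and Eip75B at 3.16. Raf encodes a kinase and had 9 optimal summits and 10, 6 and 10 top regions. For tara they were Eip75B, an ecdysone-induced nuclear receptor gene, at 5.74, kirre, a gene of myoblast fusion, at 5.83, and Tlk at 5.92.

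Other genes overlap the windows. The gene ct, which encodes the homeodomain protein Cut, ends within the 5 kb downstream of CHES-1-like, and the nearest summit of the run lay 13383 bp from it. CG15478, upstream on the same strand, ends 3545 bp from peak 1. At the far end of the tara window, replicates 2 and 3 had a top region at ranks 2117 and 681, where bor and asun begin. No optimal peak lay there.

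As a list, the forkhead genes were near the share over all protein-coding genes. Of the 17, with CHES-1-like itself counted, 5 had an optimal summit in the body or within 5 kb, or 29.4% against 31.8%. Apart from CHES-1-like, which was chosen for its peaks, they were FoxK with 2, and fkh, foxo and jumu with 1 each. The fkh peak, at rank 260, was at the promoter of this salivary gland regulator. The partner of CHES-1-like in heart progenitors, jumu, had a peak at rank 662, and foxo, which acts downstream of insulin, at rank 599. The median over the list was 0 summits a gene, as over all protein-coding genes.

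Of 17 listed cell cycle genes, with tara itself counted, 9 had an optimal summit, or 52.9%, against 31.8% of all. Apart from tara they were E2f1 and Dp with 3 each, CycB, CycE, fzr and stg with 2, and Cdk1 and E2f2 with 1. E2f1, E2f2 and Dp are the fly's E2F factors and their partner. The best rank among these 8 was 140, at fzr, an activator of the anaphase-promoting complex. CycA, the cyclin that acts with tara in sleep, had none in the optimal list and 1 top region in replicate 3 only. The median was 1 summit a gene, against 0 over all protein-coding genes. The list is small, was drawn up with results known and includes tara, which was chosen for its peaks, so its share is a description.

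The dm3 lists, the authors' second alignment, held the same runs. With no conversion of coordinates, the spacing and signal of all 10 CHES-1-like summits and of 9 tara summits were found among the 2437 dm3 optimal peaks, within 50 bp, and the ratio of dm3 to dm6 signal was 0.998 to 1.00. The tara summit not found was peak 10, at dm6 rank 2478.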

How the data were processed

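The 3 libraries were compared through 5 dm6 peak lists: the optimal, the pooled and 3 replicate lists. Per the labels and the deposited read-me files, the replicate and pooled lists are peaks and background that entered a reproducibility test (IDR), and the optimal list is what was kept after it. The deposited signal is the authors' value per region, and the −log10 q-value deposited beside it was read but not used. How reads were aligned, how peaks were called and how the signal was scaled: not given in the sources used here; depth is unknown.

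Genes came from Ensembl release 115 (BDGP 6.54), on the same dm6 assembly as the lists, and sequences from RefSeq's Release 6 genome. Summits were counted per gene, ranked within lists and matched between lists with Python 3.11.15, pandas 2.3.3 and numpy 2.4.6. Words were searched on both strands. Counting and word search were tested on simulated positions. No statistical test was run, since there is 1 group. Members, words and gene lists were chosen with earlier results of these data known.

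The genes named are the members, the 3 genes nearest to each by 4 counts, Tlk, sbb and ush, genes that overlap a member window, and listed genes with an optimal summit. Also named, outside that rule, are CycA, CG12078 and the genes with 10 or more summits. In the forkhead list, FoxK and FoxL1 each stood under 2 names and were counted once.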

Additional observations from a re-analysis of the deposited data

How the results depend on the processing

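A count was taken as moved when it changed by more than 1.5 times, and a median rank or spacing when it changed by at least 1 SD of the replicates' medians. By these measures 46 of 70 alternative values over 22 results did not move and 24 did, and the cause was not tested. At CHES-1-like, the mean number of regions per replicate was 26.7 with all listed regions in place of 7.67. Peaks supported in all 3 replicates numbered 1 within 100 bp and 10 with all listed regions, in place of 4, and 5 to 8 in both remaining replicates with a replicate left out, 8 of them without replicate 3. Median rank was 1708 in replicate 2 and 1803 in replicate 3, in place of 1005, and median spacing 2156 bp in replicate 3, in place of 1991. At tara, 6 of 10 optimal summits were in the stronger 50% of the list. Its mean number of regions per replicate was 6.67 with 1266 top regions per replicate and 36.7 with all, in place of 11.3. Supported peaks numbered 2 within 500 bp or by overlap, 6 with all listed regions and 3 in both remaining replicates whichever was left out, in place of 1. Within 100 bp the number stayed at 1, the same as at CHES-1-like. At both genes, a count that needs fewer replicates cannot be lower. Median rank was 1569 in replicate 3 and 1424 in replicate 4, in place of 867. Promoter summits numbered 2 within 2000 bp or with TSSs of any gene, in place of 1, and median spacing was 2004 bp in replicate 2, in place of 4869. With 200 bp to either side, 9 member windows held AAACTA, 4 GTAAACA and 14 GAGAG. Over all nuclear peaks their shares were higher too, at 30.8%, 12.7% and 49.7% in place of 20.8%, 6.37% and 26.5%. The member flanks that held these words numbered 15, 6 and 23 of 40 in place of 7, 3 and 13. The higher counts were therefore not confined to member summits. CACTGT, an alternative added after seeing the data, was in 10 member windows, as within 100 bp. The member flanks that held CACTGT numbered 8 of 40 in place of 4, so the ratio of summit to flank shares was 2.5 in place of 5. Outside both genes it was in 29.8% of summit windows and 16.6% of flanks, a ratio of 1.79 in place of 2.25.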

Other observations

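The tara window held top regions that the optimal list does not show. In replicate 2, regions in the long first intron had ranks 510, 615, 723 and 985. Those at ranks 723 and 985 had summits within 200 bp of each other and can be read as the same site. No top region of another replicate lay within 200 bp of any of these regions. Replicate 4 had regions at ranks 829 and 996 of the same kind. A weaker region, 12665 bp from the first TSS, was a top region in both replicates 3 and 4, at ranks 2065 and 2135 with summits 7 bp apart, and was not in the optimal list. At CHES-1-like the comparable case lay upstream of RB, 3926 bp from the first TSS in replicate 2 and 3911 bp in replicate 3. Its summits in the 2 replicates lay 15 bp apart and can be read as the same site, and its window held CACTGT in both. Of the 16 unmatched top regions at tara, 3 held the word. In top regions outside both genes the mean share was 18.7% ± 2.99 (SD, n = 3).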
